A study of Mus musculus with 8 samples.

Results

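The A-type potassium current of striatal neurons was followed through the 10 genes for its pore-forming and auxiliary subunits: Kcnd1, Kcnd2, Kcnd3, Kcnip1, Kcnip2, Kcnip3, Kcnip4, Dpp6, Dpp10 and Kcna4. They were found by gene symbol among 32531 gene rows, and all 10 were measured. The set was selected on gene family by name, after the CPM differences between the 2 regions in these same libraries were known, so the region values of the members are a description and were not used as evidence. The material was ribosome-bound RNA from transgenic mice of the Drd1-TRAP line CP73, aged to more than 20 months. In this line an EGFP-tagged copy of ribosomal protein L10a is driven by the D1 dopamine receptor gene, and tagged polysomes were pulled down with anti-EGFP antibodies. The groups were 4 immunopurified libraries from dorsal striatum and 4 from the accumbens nucleus. All 8 carried the same transgene, received no treatment and had no young or unpurified counterpart in the libraries used here. The labels do not say whether a library came from 1 mouse or several, so the spread below may be partly technical.

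An A-type current is a potassium current that opens below the spike threshold and inactivates quickly, which delays the first spike and limits how far dendritic signals spread. In spiny projection neurons it is carried mainly by Kv4 channels, encoded by the Kcnd genes. Kv4 pores assemble with KChIPs, which are calcium-binding proteins encoded by the Kcnip genes, and with the membrane proteins DPP6 and DPP10. KChIPs bring Kv4 to the surface and slow its inactivation, while the DPP proteins speed its gating. Kcna4 encodes Kv1.4, a Kv1-family pore that inactivates by its own N-terminal plug and is found mostly in axons.

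Between 7466970 and 10363145 reads were assigned to genes in the dorsal libraries, and between 10831937 and 12639641 in the accumbens libraries. The 10 genes took 0.142% to 0.151% of these in dorsal striatum and 0.128% to 0.146% in accumbens. Dorsal striatum 3, the smallest library, and accumbens 2 lay at opposite ends of the first principal component and correlated least with the others. Drd1, whose promoter drives the tag, averaged 605 ± 60.9 CPM over the dorsal libraries and 435 ± 86.5 CPM over the accumbens libraries (SD, n = 4, edgeR adjusted p = 0.0750, passing in 4 of 14 alternative fits). Among all 6 direct-pathway markers tested, 1 passed in each direction, and the median log2 fold change, accumbens over dorsal striatum, was -0.38. The prodynorphin gene Pdyn was higher in accumbens (log2 fold change 1.02 ± 0.14 SE, edgeR adjusted p = 3.70e-04). Eya1 was higher in dorsal striatum (-0.55 ± 0.11, edgeR adjusted p = 0.00849). Tac1 (0.05 ± 0.14), Chrm4 (-0.40 ± 0.21) and Isl1 (-0.35 ± 0.35) did not pass. Reads assigned to no single gene made up 27.1% to 33.8% of the dorsal and 35.5% to 40.6% of the accumbens libraries, without overlap, and their part in the region differences was not tested. CPM are counts scaled to a common library size after TMM scaling of library size. In bulk material of this kind, fewer cells of a type and less RNA per cell cannot be told apart.

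The 5 genes that passed the threshold for a region difference were the pore genes Kcnd2 and Kcnd3, the KChIP genes Kcnip1 and Kcnip2, and Dpp10. Their start-site sequences are shown because these genes moved in opposite directions: Kcnd2 and Kcnip2 were higher in dorsal striatum, Kcnip1, Kcnd3 and Dpp10 higher in accumbens. Each run is the stretch of 250 bases before a RefSeq start (GRCm38.p6), 5′ to 3′ on the gene's strand. For Kcnip1 the most upstream of its 3 listed starts is given. The stretches are chr6:21215096-21215345 (plus strand) for Kcnd2, chr19:45816064-45816313 (minus) for Kcnip2, chr11:33993194-33993443 (minus) for Kcnip1, chr3:105451640-105451889 (plus) for Kcnd3 and chr1:124045560-124045809 (minus) for Dpp10. Capitals mark matches on either strand to GGGCGG (GC box), CCAAT and CAGCTG (an E-box).
Kcnd2: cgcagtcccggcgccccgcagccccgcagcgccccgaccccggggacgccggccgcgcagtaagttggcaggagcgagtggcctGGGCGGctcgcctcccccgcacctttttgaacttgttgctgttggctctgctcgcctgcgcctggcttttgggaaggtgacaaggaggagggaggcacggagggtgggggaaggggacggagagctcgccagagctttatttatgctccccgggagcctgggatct
Kcnip2: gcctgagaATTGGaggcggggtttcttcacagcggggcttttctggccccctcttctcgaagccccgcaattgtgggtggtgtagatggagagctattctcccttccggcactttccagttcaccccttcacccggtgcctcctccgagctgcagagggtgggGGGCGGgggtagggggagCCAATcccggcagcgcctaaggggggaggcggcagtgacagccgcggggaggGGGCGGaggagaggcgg
Kcnip1: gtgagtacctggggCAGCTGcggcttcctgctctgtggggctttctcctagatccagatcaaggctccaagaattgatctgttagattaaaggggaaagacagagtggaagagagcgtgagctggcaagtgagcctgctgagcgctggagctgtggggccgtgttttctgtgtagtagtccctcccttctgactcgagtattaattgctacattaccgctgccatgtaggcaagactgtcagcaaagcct
Kcnd3: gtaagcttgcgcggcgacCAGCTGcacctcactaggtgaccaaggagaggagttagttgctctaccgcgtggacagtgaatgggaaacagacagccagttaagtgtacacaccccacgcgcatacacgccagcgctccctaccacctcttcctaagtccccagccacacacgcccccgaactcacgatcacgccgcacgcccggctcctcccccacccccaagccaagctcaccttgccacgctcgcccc
Dpp10: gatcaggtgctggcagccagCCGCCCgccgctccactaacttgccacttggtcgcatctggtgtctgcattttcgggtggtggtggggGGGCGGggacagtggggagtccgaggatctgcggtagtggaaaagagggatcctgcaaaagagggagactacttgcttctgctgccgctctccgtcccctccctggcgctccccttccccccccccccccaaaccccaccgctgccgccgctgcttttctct

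A GC box stood in 3 of these windows, once in that of Kcnd2 and 2 times each in those of Kcnip2 and Dpp10. Over all 32851 RefSeq windows of the same length, 32.7% hold that motif. CAGCTG was found in the windows of Kcnip1 and Kcnd3, 236 and 232 bases before the start, against 13% of all windows. Of the 3 Kcnip1 windows, 1 held it. The other 2, at 33843687 to 33843936 and 33680683 to 33680932, had a GC box and a CCAAT instead. CAGCTG also stood in the most upstream of the 3 Kcnip3 windows, 140 bases before the start. Kcnip3 was not among the 5 and had a log2 fold change toward dorsal striatum (-0.34). CCAAT was present only in that of Kcnip2 among the 5, 2 times, against 33.85% of all windows. None of the 5 held TATAAA (12.4% of all windows), the cyclic AMP response element TGACGTCA (1.55%) or its shorter form TGACG (17.8%), which lies within the longer one. The Kcnd2 window had the most CG pairs, 22, and that of Kcnip1 the fewest, 6, where the median of all windows is 6. The counts do not tell which start was used, and the 3 Kcnip1 windows ranged from 44.0% to 67.6% G and C. Windows were listed for 9 of the 10 genes, all but Kcnd1. A match is a description of letters and not a measured site.

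Across all 12467 tested genes, 464 passed an adjusted p of 0.05 in the region comparison, or 3.72%. Among the 10 members 5 passed, 3 of them higher in accumbens (background 1.60%) and 2 higher in dorsal striatum (background 2.12%). Nothing is read from these counts, since the region difference was in view when the family was picked. Log2 fold changes are given as accumbens over dorsal striatum, and their median over the 10 genes was -0.06, beside 0.02 over all tested genes. The median size without sign was 0.69, beside 0.29 over all tested genes. Values of the 2 regions did not overlap for 6 of the 10, where 9.69% of tested genes showed no overlap.

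**Figure D1:**
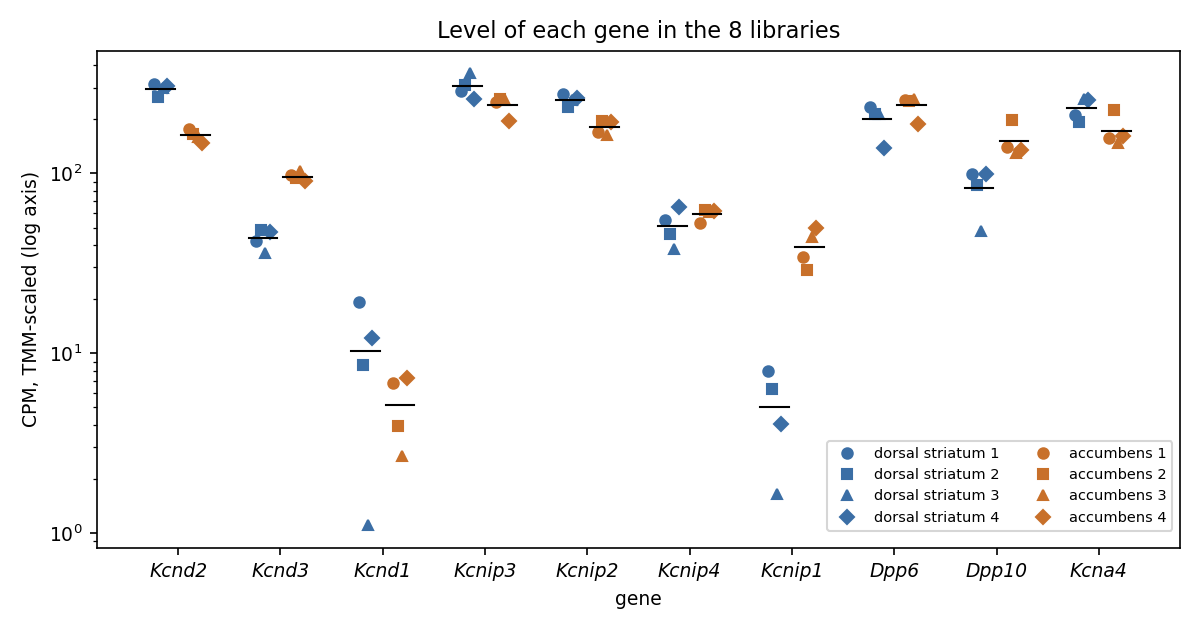
CPM (log axis) of each gene in each of the 8 libraries, dorsal striatum in blue and accumbens in orange, with the marker shape giving the library number and a bar at each region's mean. The orange and blue points separate for Kcnd2, Kcnd3, Kcnip1, Kcnip2, Kcnip3 and Dpp10, and dorsal striatum 3 is the lowest point for Kcnd1 (1.11 CPM) and Kcnip1 (1.66 CPM).

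Kcnd2 encodes Kv4.2, the pore known as the main A-type channel of spiny neurons and their dendrites (chromosome 6, 21215503 to 21729805). In dorsal striatum it stood at 315.0, 264.7, 300.1 and 304.9 CPM in libraries 1 to 4, the order used throughout. In accumbens it stood at 177.2, 165.5, 159.2 and 148.5 CPM. Every dorsal library lay above every accumbens library, and the lowest dorsal value was well clear of the highest accumbens value. The log2 fold change was -0.87 ± 0.13 (SE), a level 1.82-fold higher in dorsal striatum. The spread within a region was among the smallest of the family, at 7.39% of the mean in dorsal striatum and 7.37% in accumbens.

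Kcnd3, for the related pore Kv4.3, went the other way (chromosome 3, 105452330 to 105674002). It stood at 42.0, 48.5, 36.1 and 47.4 CPM in dorsal libraries 1 to 4. The accumbens libraries held 97.5, 93.9, 102.6 and 90.2 CPM. All 4 accumbens values were far above all dorsal values, with a log2 fold change of 1.14 ± 0.17 (SE), or 2.21-fold. An antisense gene, Kcnd3os, overlaps its exons by 165 bases, and the strand setting of the counting is not given in the sources used here.

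Kcnd1, for Kv4.1, was the scarcest member over both regions together and had the widest relative spread in each (chromosome X, 7822289 to 7838280). Its dorsal libraries held 19.4, 8.59, 1.11 and 12.1 CPM and its accumbens libraries 6.82, 3.92, 2.69 and 7.29 CPM. The regions overlapped, dorsal striatum 3 lying below every accumbens library with only 8 reads. The standard deviation was 73.8% of the mean in dorsal striatum and 43.0% in accumbens. The log2 fold change of -0.99 ± 0.62 (SE) did not pass, and it was -1.37 without dorsal striatum 3 and -0.50 without dorsal striatum 1.

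Because Kcnd2 and Kcnd3 moved in opposite directions, the make-up of the Kv4 pool differed by region. On a scale of counts per kilobase of merged exon in a library of common size (RPKM), Kcnd2 made up 89.9% ± 2.50 of the summed Kv4 level in dorsal libraries and 74.1% ± 1.23 in accumbens libraries (SD, n = 4). The share of Kcnd3 was 7.14% ± 1.21 and 23.6% ± 1.38. The ratio of Kcnd2 to Kcnd3 ran from 10.2 to 15.5 in dorsal libraries and from 2.89 to 3.38 in accumbens libraries. The summed Kv4 level was 58.1 to 69.2 RPKM in dorsal striatum and 39.6 to 45.9 RPKM in accumbens, so the regions did not overlap in the total either. These shares restate the same region contrast and carry no test. They rest on merged exon lengths, by which Kcnd3 averaged 7.28 RPKM, beside 9.73 by its longest transcript.

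**Figure D2:**
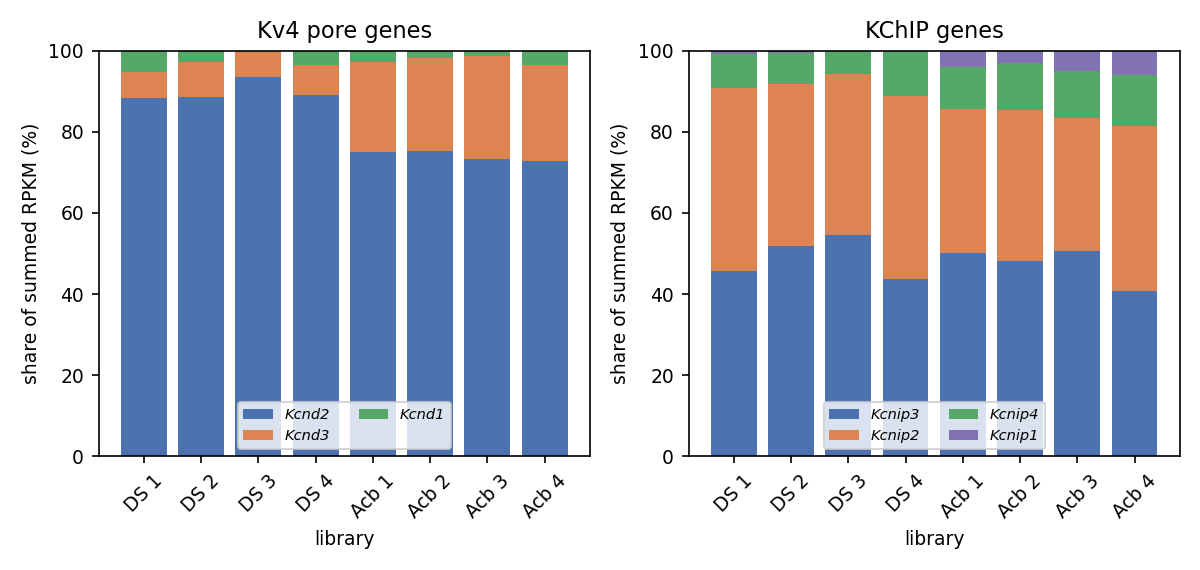
Share of the summed RPKM held by each Kv4 pore gene (left) and each KChIP gene (right) in each library, where DS is dorsal striatum and Acb is accumbens. The Kcnd3 share is 6.05% to 8.71% in the DS bars and 22.2% to 25.4% in the Acb bars, and the Kcnip1 share is at most 0.723% in DS and 3.09% to 5.90% in Acb.

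Kcnip1 had the widest region difference of the family (chromosome 11, 33629339 to 33993152). It encodes KChIP1, known in the forebrain mainly from interneurons. Its dorsal libraries held 7.93, 6.36, 1.66 and 4.04 CPM, that is 67, 60, 12 and 41 reads. The accumbens libraries held 34.3, 28.9, 44.1 and 49.7 CPM. The lowest accumbens value lay far above the highest dorsal value, and dorsal striatum 3 was the lowest of all. The log2 fold change was 2.96 ± 0.39 (SE), or 7.80-fold, and it stayed between 2.68 and 3.26 in all 14 alternative fits.

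Markers of other cells were read beside Kcnip1. The summed level of 8 GABA interneuron markers was 39.8 to 82.6 CPM in dorsal libraries and 59.7 to 96.3 CPM in accumbens libraries. These ranges overlapped. Of those 8 markers 4 were abundant enough to test (Sst, Nos1, Lhx6 and Th). Of these 0 passed in edgeR, also 0 at an unadjusted p under 0.05. All 4 had estimates toward accumbens, with a median log2 fold change of 0.25 (0.02 over all tested genes). The parvalbumin gene Pvalb, Npy, Vip and Cox6a2 were below the count filter. Summed markers of indirect-pathway neurons (Drd2, Adora2a, Penk, Gpr6 and Sp9) did move with region, from 218 to 328 CPM in dorsal striatum to 620 to 898 CPM in accumbens. Penk made up most of these sums, at 248 CPM dorsally and 606 CPM in accumbens on average. All 5 estimates were toward accumbens and 3 of the 5 passed, Gpr6 and Sp9 not. The part of other cells in the differences of the members was not tested.

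Kcnip2 encodes KChIP2, a KChIP known from spiny neurons and heart muscle (chromosome 19, 45791839 to 45816061). It stood at 276.3, 234.1, 256.1 and 263.1 CPM in dorsal libraries and 171.1, 195.3, 162.9 and 192.1 CPM in accumbens libraries. The regions did not overlap, and the log2 fold change was -0.51 ± 0.13 (SE), or 1.43-fold higher in dorsal striatum. Its place past the threshold was narrow: the call was lost without dorsal striatum 1, 3 or 4, without accumbens 1, 3 or 4, and with dorsal striatum 3 and accumbens 2 both left out, at adjusted p up to 0.106 in edgeR. The log2 fold change itself stayed between -0.56 and -0.46.

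Kcnip3 encodes KChIP3, also called DREAM or calsenilin, which besides binding Kv4 acts as a calcium-regulated repressor of transcription (chromosome 2, 127456498 to 127522094). It was the most abundant member, at 286.8, 310.5, 360.2 and 260.6 CPM in dorsal libraries. In accumbens it held 248.3, 258.1, 257.0 and 196.6 CPM. The regions did not overlap, but the gap between dorsal striatum 4 and accumbens 2 was narrow, and the log2 fold change of -0.34 ± 0.14 (SE) did not pass.

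Kcnip4, for KChIP4, some forms of which keep Kv4 from inactivating quickly, spans a long stretch of chromosome 5 (48389502 to 49524907). It stood at 54.8, 45.8, 37.9 and 65.2 CPM in dorsal libraries and 52.9, 63.0, 60.7 and 62.1 CPM in accumbens libraries. The regions overlapped, with a log2 fold change of 0.23 ± 0.20 (SE) that did not pass. Its exons share 267 bases with genes on the opposite strand, one of them the coding gene 5730480H06Rik. The counts do not separate its isoforms.

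Within the KChIP pool, Kcnip3 and Kcnip2 dominated in both regions on the RPKM scale. Kcnip3 held 49.0% ± 5.09 of the summed level in dorsal striatum and 47.5% ± 4.56 in accumbens, and Kcnip2 held 42.4% ± 3.04 and 36.5% ± 3.35 (SD, n = 4). Kcnip1 went from 0.466% ± 0.256 to 4.48% ± 1.22 and so remained the smallest KChIP share in accumbens despite its fold change. Kcnip4 held 8.09% ± 2.13 and 11.6% ± 0.874. The summed KChIP level was 2.53 to 2.99 times the summed Kv4 level in dorsal libraries and 3.04 to 3.54 times in accumbens libraries. These shares and ratios rest on merged exon lengths. By longest transcript Kcnip3 and Kcnip4 averaged 99.7 and 23.1 RPKM, beside 76.8 and 15.2 by merged exons. RNA levels per length say nothing of the protein ratio.

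Dpp6 and Dpp10 encode single-pass membrane proteins of the dipeptidyl peptidase family that have lost enzyme activity. Dpp10 (chromosome 1, 123321471 to 124045559) stood at 99.5, 85.9, 47.9 and 99.2 CPM in dorsal libraries. In accumbens it stood at 139.9, 199.1, 129.7 and 134.5 CPM. The regions did not overlap, with dorsal striatum 3 the lowest library and accumbens 2 the highest. The log2 fold change was 0.86 ± 0.21 (SE), or 1.81-fold. With both of those libraries left out it was 0.50 and did not pass (edgeR adjusted p = 0.128). Leaving out dorsal striatum 2, dorsal striatum 3, accumbens 1 or accumbens 2 alone also ended the call.

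Dpp6 (chromosome 5, 26817203 to 27727505) stood at 234.5, 213.0, 214.6 and 138.2 CPM in dorsal libraries and 256.0, 253.4, 259.1 and 187.4 CPM in accumbens libraries. The regions overlapped because accumbens 4 fell below 3 dorsal libraries, and the log2 fold change of 0.26 ± 0.17 (SE) did not pass. Summed over both DPP genes by merged exon length, the level was 17.5 to 25.3 RPKM in dorsal striatum and 23.7 to 33.1 RPKM in accumbens. These sums depend on the length used, since Dpp6 averaged 17.8 RPKM by merged exons and 46.5 RPKM by its longest transcript. Astrocyte markers, read beside these genes, summed to 189 to 351 CPM in dorsal libraries and 242 to 673 CPM in accumbens libraries. Slc1a2 made up most of these sums, at 230 CPM dorsally and 433 CPM in accumbens on average. Of the 5 tested markers 1 passed in edgeR (Slc1a2), and 2 had an unadjusted p under 0.05 (share of all tested genes not taken). Estimates of 4 of the 5 were toward accumbens, with Aqp4 near 0 (0.01 ± 0.56 SE), and Gfap went the other way (-0.15 ± 1.13 SE). Oligodendrocyte precursor markers summed to at most 9.96 CPM and 0 of 3 passed in edgeR, also 0 at an unadjusted p under 0.05. The part of these cells was not tested.

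Kcna4 (chromosome 2, 107290639 to 107298502) stood at 212.0, 193.9, 260.8 and 254.8 CPM in dorsal libraries. In accumbens it stood at 156.5, 226.7, 146.8 and 160.9 CPM. Accumbens 2 lay within the dorsal range while the other accumbens libraries lay below it. The log2 fold change of -0.42 ± 0.16 (SE) did not pass with all libraries (edgeR adjusted p = 0.199). It passed in 1 of the 14 alternative fits, without accumbens 2 (-0.58, edgeR adjusted p = 0.0491). With dorsal striatum 3 left out as well it was -0.51 and did not pass (edgeR adjusted p = 0.11).

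**Figure D3:**
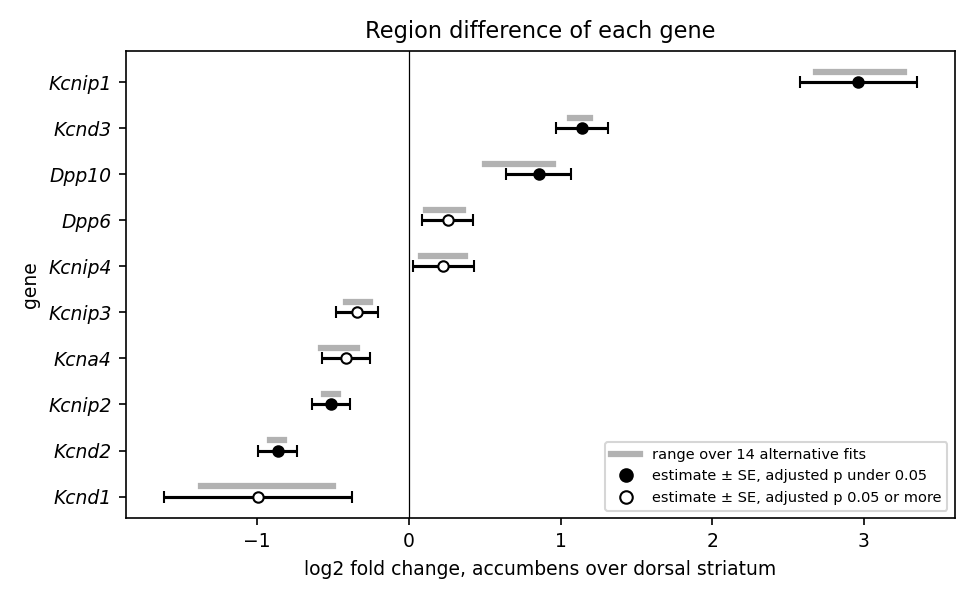
Log2 fold change, accumbens over dorsal striatum, of each gene with its standard error (filled points passed an adjusted p of 0.05, open points did not), with a grey bar for the range over the 14 alternative fits. Kcnip1, Kcnd3 and Dpp10 are filled to the right of 0, and Kcnip2 and Kcnd2 are filled to the left.

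Dorsal striatum 3 recurred at the edge of the family. It was the lowest dorsal library for Kcnd1, Kcnd3, Kcnip1, Kcnip4 and Dpp10 and the highest for Kcnip3 and Kcna4. The GABA interneuron and indirect-pathway marker sums were also lowest there among the dorsal libraries, at 39.8 and 218 CPM (189 CPM of the latter Penk). Its astrocyte sum of 243 CPM, 221 CPM of it Slc1a2, was second highest. Kcnd2, Kcnd3 and Kcnip1 passed in every one of the 14 alternative fits, including those without dorsal striatum 3.

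Levels averaged over both regions were not used in choosing the genes, and their order was tested. The neighbouring pairs were set by the mean levels in these same 8 libraries, so the order and its test share their data. The p-values therefore only describe how steady each ratio was over the libraries. They do not cover an error in gene length, which is the same in every library. On the RPKM scale the order was Kcnip3 (76.8), Kcnip2 (63.0), Kcnd2 (44.5), Kcna4 (41.7), Dpp6 (17.8), Kcnip4 (15.2), Dpp10 (7.41), Kcnd3 (7.28), Kcnip1 (3.57) and Kcnd1 (1.46). Of the 9 neighbouring pairs, 4 had an adjusted p under 0.05 in the exact sign-flip test and are called separated here. Kcnip2 lay above Kcnd2, Kcna4 above Dpp6, Kcnip4 above Dpp10 and Kcnd3 above Kcnip1, each in 8 of 8 libraries (two-sided exact sign-flip permutation test over libraries, p = 0.00781, the smallest that 8 libraries allow, adjusted p = 0.0176). The mean log2 ratios of these pairs were 0.54 ± 0.23, 1.22 ± 0.54, 1.12 ± 0.42 and 1.70 ± 1.24 (SD, n = 8). An SD over all 8 libraries spans both regions, so it holds region differences as well as the spread between libraries of a region. For Kcnd3 above Kcnip1 the log2 ratio ran from 0.23 to 3.81, where their region log2 fold changes were 1.14 and 2.96.

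The other 5 neighbours were not separated. Kcnip3 lay above Kcnip2 in 7 of 8 libraries (exact sign-flip permutation adjusted p = 0.0703). Kcnd2 and Kcna4 differed by a mean log2 ratio of 0.06 ± 0.32 (SD, n = 8), with adjusted p = 0.686 in the same exact test. Dpp6 and Kcnip4, Dpp10 and Kcnd3, and Kcnip1 and Kcnd1 had adjusted p of 0.311, 0.766 and 0.311. In the regions taken alone, Kcnd1 stood above Kcnip1 in dorsal striatum, and Kcna4 above Kcnd2 and Kcnd3 above Dpp10 in accumbens. The position of Dpp6 depends on length: merged exons gave 12347 bases and the longest transcript 4720 bases. With the latter Dpp6 ranked just above Kcnd2 and so above Kcna4 as well (46.5 and 42.1 RPKM). That reverses a pair called separated by merged exons. With the longest transcript as length the separated neighbours were other pairs. They were Kcnip3 above Kcnip2 in 8 of 8 libraries, Kcna4 above Kcnip4 and Kcnip4 above Kcnd3 (exact sign-flip permutation adjusted p = 0.0234 each).

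**Figure D4:**
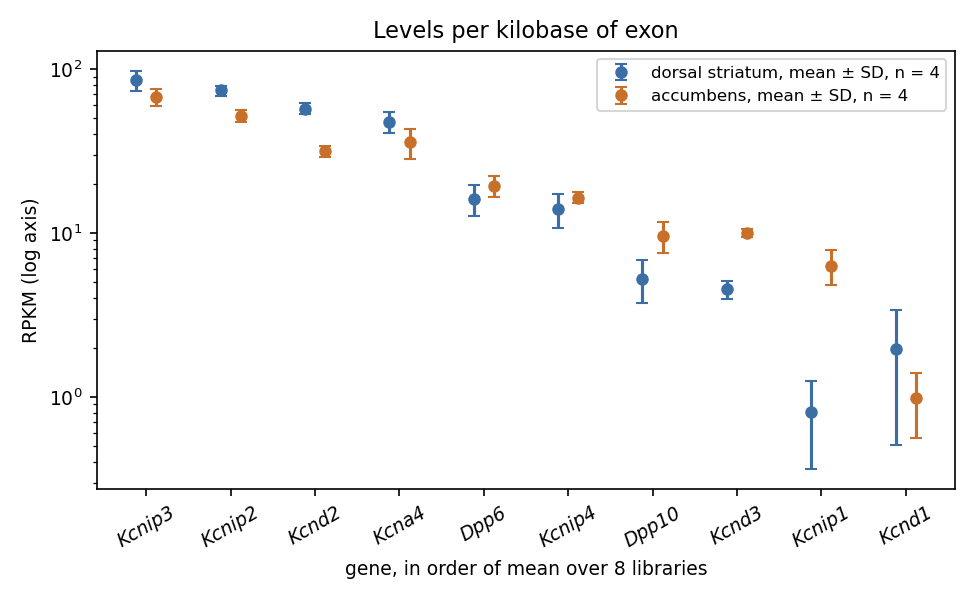
RPKM (log axis) of each gene, mean and standard deviation of 4 libraries for each region, in the order of the mean over all 8 libraries. Levels fall from Kcnip3 at 76.8 to Kcnd1 at 1.46, and the blue and orange means of Kcnip1 lie furthest apart.

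Members also differed in how much they varied between libraries of a region. The biological coefficient of variation, edgeR's estimate of that spread beyond counting error, was 0.141 for Kcnd2 and 0.143 for Kcnip2, beside 0.168 and 0.169 on the trend for genes of their abundance. It was 0.219 for Dpp10 (trend 0.188), 0.352 for Kcnip1 (0.318) and 0.600 for Kcnd1 (0.506). In abundance, Kcnip3 stood at the 94.2th percentile of tested genes, Kcnd2 at the 92.9th, Kcnip1 at the 52.2th and Kcnd1 at the 29.4th.

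The genes whose log2 CPM followed Kcnip1 most closely over the 8 libraries, among 9281 compared, were Irs2, an insulin receptor substrate (Pearson r = 0.988), the adenylate kinase gene Ak5 (0.976) and Tcerg1l (0.974). For Kcnd3 they were Hap1, for a huntingtin-associated protein (0.990), Epb4.1l4b (0.989) and the inhibitory G protein gene Gnai1 (0.988). All 6 were higher in accumbens, with log2 fold changes from 0.52 (Gnai1) to 2.25 (Tcerg1l). The 8 points of each correlation share the region contrast, so these values mark a common region difference and are given without p.

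Other genes of the A-type current were taken from lists written with earlier results of these data known. The counts of these lists that passed after adjustment stand beside 3.72% of all tested genes that passed in either direction. That share does not apply to counts at an unadjusted p under 0.05. For those the share of all tested genes was not taken, and nothing is read from them. Among relatives that can give or shape an inactivating current, 7 of 12 were tested, 0 rose and 3 fell toward accumbens, with a median log2 fold change of -0.02 (0.02 over all tested genes). Kcna2, a Kv1 pore of axons, stood at 454 ± 49.1 CPM dorsally and 301 ± 22.3 CPM in accumbens (edgeR adjusted p = 0.00851). Kcnab1, the beta subunit that lends Kv1 pores fast inactivation, stood at 306 ± 49.96 and 209 ± 23.6 CPM (adjusted p = 0.0380, SD and n = 4 for both). Kcnab1 did not pass without any one of dorsal striatum 1, 3 or 4 or accumbens 1, 3 or 4 (edgeR adjusted p up to 0.132), nor with dorsal striatum 3 and accumbens 2 both left out (0.0533). Kcna2 passed in all 14 alternative fits. Kcna1, the most abundant of this list, had a log2 fold change of 0.045 ± 0.13 (SE), which turned to -0.051 without accumbens 2. Kcne1 had 0 reads in every library, Kcne2, Kcne3 and Kcne4 were below the filter, and no row matched Kcne5.

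Of 14 genes for proteins that bind or phosphorylate Kv4, all were tested, with a median log2 fold change of 0.08. In edgeR 6 had an unadjusted p under 0.05, and after adjustment 2 rose toward accumbens and 0 fell. They were the calmodulin kinase subunits Camk2d, at 33.0 ± 9.34 CPM dorsally and 73.1 ± 12.2 CPM in accumbens (edgeR adjusted p = 0.00679), and Camk2g, at 48.98 ± 6.74 and 84.1 ± 9.69 CPM (adjusted p = 0.0182, not passed without dorsal striatum 3 at 0.0615, nor with accumbens 2 left out as well at 0.101). The far more abundant Camk2a had a log2 fold change of -0.09 ± 0.16 and the anchoring protein gene Akap5 one of -0.29 ± 0.11 (SE), neither passing. Of 6 peptidase relatives of DPP6 and DPP10, 4 were tested and 0 passed in edgeR, 0 at an unadjusted p under 0.05. Dpp8 and Dpp9, the 2 most abundant, had log2 fold changes of -0.06 ± 0.14 and 0.25 ± 0.28 (SE).

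Of 8 neuronal calcium sensors related to the KChIPs, 6 were tested, 1 passed in each direction and the median was 0.56. In edgeR 5 of the 6 had an unadjusted p under 0.05. Hpca, for hippocalcin, stood at 2481 ± 392 CPM dorsally and 1340.1 ± 154 CPM in accumbens (SD, n = 4, log2 fold change -0.89 ± 0.13 SE, edgeR adjusted p = 3.73e-04). Vsnl1, for visinin-like protein, stood at 593 ± 179 and 1054.5 ± 211 CPM (0.83 ± 0.18, adjusted p = 0.0142), and did not pass without dorsal striatum 1 or 3 or accumbens 3. Hpcal4 was not called (0.32 ± 0.12). Ncs1 is on both this list and that of Kv4 partners.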

How the data were processed

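The deposited files hold raw counts of reads per gene symbol, 1 file per library, with STAR 2.0.0e and HTSeq named as tools and mm10 as the build, per the submitters' processing notes. Annotation, strand setting and read filters are not given in the sources used here. Reads without a single gene, 27.1% to 40.6% of each library, were left out. Libraries were grouped by title, and no pair agreed within counting error. edgeR 4.0.16 (R 4.3.3) tested region as the only term: TMM, filterByExpr at a minimum count of 10, quasi-likelihood F test, Benjamini-Hochberg adjustment over 12467 genes, threshold 0.05, with log2 CPM at a prior count of 2. Standard errors were derived as the fold change over the root of F. The edgeR step and the sign-flip test were tested on simulated data. A count of 3 equals 0.237 to 0.402 CPM. Positions and exon lengths are from GENCODE M21 (GRCm38, the coordinates of mm10), and start-site sequences from RefSeq.

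The members and lists were chosen with earlier results of these data known. All members are named. From each list the rule named passing genes (at most 4, by size of change) and the 2 most abundant, Drd1 as a check, and the 3 genes most correlated with each of the 2 members of largest fold change. Alternatives were RLE scaling, no filter, a filter of 1 CPM in 4 libraries, DESeq2 1.42.0, the replicate number as a block, each library left out, and the longest transcript as gene length. Leaving out dorsal striatum 3 and accumbens 2 together was added after seeing the data. Protein sequences were not used here, and 1 gene counted in the list of channel relatives is not reported here by name.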

Additional observations from a re-analysis of the deposited data

Results flagged for a closer look

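A single library stood far from the other 3 of its region in 3 of the 20 sets of 4 values examined (10 genes in 2 regions), where chance gives about 1 set in 20. In accumbens 4, Dpp6 was lower (187.4 CPM, the others 253.4 to 259.1), with a gap of 0.92 of the group's range, and Kcnip3 was lower (196.6 CPM, the others 248.3 to 258.1), with a gap of 0.841. In accumbens 2, Dpp10 was higher (199.1 CPM, the others 129.7 to 139.9), with a gap of 0.854.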

How the results depend on the processing

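No member changed sign in any of the 14 alternative fits, and Kcnd2, Kcnd3 and Kcnip1 passed in all of them. DESeq2 called 763 genes where edgeR called 464, and the cause was not tested; no filter gave 696, and leaving out 1 library 324 to 411. The count of members that passed was 5, and 3 to 5 with 1 library left out; it was 3 with dorsal striatum 3 and accumbens 2 both left out. The members higher in dorsal striatum numbered 2, and 1 to 3 with 1 library left out, 1 with those 2 libraries left out and 1 with the replicate block, where Kcnip2 missed the threshold (adjusted p = 0.0511). Fewer libraries give these fits less precision. Of the 30 tested genes on the related lists 7 passed, 4 to 7 with 1 library left out and 5 with the replicate block, where Kcnab1 missed the threshold (adjusted p = 0.0615). Over all genes the replicate block called 432. Same-numbered libraries did not deviate together (correlations -0.08 to 0.01). The labels do not say whether they share animals, so the numbers were not used as pairs. Log2 fold changes turned sign for Kcna1 without accumbens 2 (-0.051 to 0.12 with 1 library left out) and with both libraries left out (-0.073), Camk2a without accumbens 1 (-0.24 to 0.0053), Dpp8 without dorsal striatum 3 (-0.14 to 0.082) or both (0.0091) and Dpp9 without both (-0.12), none of which passed. Of the neighbouring levels 4 pairs were separated, 3 by longest transcript (none of the same pairs, as the order changes) and 4 to 6 with 1 library left out. Within 1 region the exact sign-flip test over 4 libraries cannot go below p = 0.125, so only the order was given. Depth limits Kcnd1 and dorsal Kcnip1 most, with as few as 8 and 12 reads in dorsal striatum 3.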

Other observations

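Dpp6 was lowest in library 4 of each region, with 138.2 CPM dorsally and 187.4 CPM in accumbens, and so was Kcnip3 (260.6 and 196.6 CPM). Over all genes libraries 4 did not deviate together (correlation of deviations -0.04). Accumbens 2 held the highest accumbens value of 5 of the 10 genes, Kcnip2, Kcnip3, Kcnip4, Dpp10 (199.1 CPM) and Kcna4 (226.7 CPM). The share over all tested genes was not taken.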
